A study of Caenorhabditis elegans with 2 samples.

Results

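The vitellogenin genes of Caenorhabditis elegans, vit-1 to vit-6, encode the precursors of the yolk proteins. They were examined here as targets of ZFP-3, a zinc finger protein. The 6 genes were taken by name from the Ensembl annotation of the WBcel235 genome, which has the same sequence as ce11, and are 6 of 19973 protein-coding genes on the nuclear chromosomes. A gene was counted as having a peak where the summit of the peak lay in the gene or within 1000 bp upstream of its annotated 5′ end. Chromatin had been immunoprecipitated with an antibody against GFP from whole L4 larvae of strain RW12271, aged 48 h. In this strain an insertion made with CRISPR fuses TY1, EGFP and 3xFLAG to ZFP-3 at its own X-linked gene. The larvae had been synchronized by starvation at the first larval stage after bleaching, and all tissues were pooled, so no value below belongs to the intestine alone. There was 1 group, with biological replicates 1 and 2, and no other genotype, stage or treatment. Untagged animals were not analysed here.

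Vitellogenins are large lipid-binding proteins. In adult hermaphrodites they are made in the intestine, secreted into the body cavity and taken up by oocytes through the receptor RME-2, and they feed the embryo. Their transcription starts around the end of larval life and depends on short promoters with sites for GATA factors, of which ELT-2 is the main one of the intestine. VIT-1 to VIT-5 give the large yolk polypeptides, and VIT-6 gives a pair of smaller ones by cleavage. Beyond its zinc fingers, no role of ZFP-3 in yolk production was assumed.

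In the conservative list of the series, made by the authors from both libraries, 3 of the 6 genes held 11 peak summits: 4 in vit-2, 4 in vit-5 and 3 in vit-6. There was none in vit-1, vit-3 or vit-4. No other annotated gene lay over any of the 11 summits. Over all protein-coding genes, 7.30% had a summit by the same rule. All 3 genes had 3 or more summits, which 0.381% of protein-coding genes, 76 in number, reached. No summit lay upstream of a vitellogenin gene. Of the 11 summits, 10 lay in coding sequence and 1 in an intron, whereas 320 of all 2010 peaks of that list (15.9%) had their summit in coding sequence. Coding sequence makes up 93.3% to 94.4% of these 3 genes, so 10 of 11 (90.9%) is near the share of any place within them. Only 9 protein-coding genes (0.0451%) had 3 or more summits in their own coding sequence, and vit-2, vit-5 and vit-6 were among them. The others were atgl-1, cutl-11, idh-1, mmcm-1, mnk-1 and nadk-2.

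These genes are long, so length was set beside the counts. The 6 genes span 5128 to 5303 bp and coding sequence makes up 91.8% to 94.4% of each. Of 485 genes longer than 5000 bp and up to 5500 bp, 53 had at least 1 summit (10.9%) and 6 had 3 or more (1.24%); vit-2, vit-5 and vit-6 are 3 of these 6. Per kilobase, the vitellogenin genes held 0.295 summits and all genes 0.0217. No test was made of these shares, since the genes were chosen with earlier results of the same data known.

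**Figure D1:**
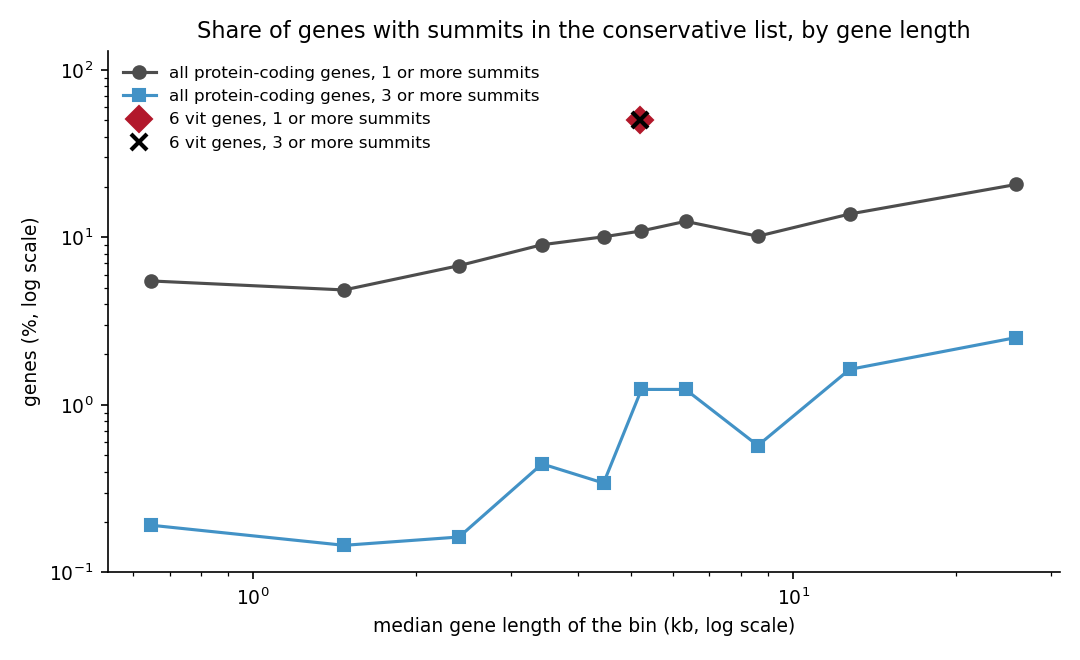
Percentage of protein-coding genes (y axis, log scale) with 1 or more summits (circles) or 3 or more summits (squares) in the conservative list, by median gene length of the bin (x axis, kb, log scale). The diamond and the cross mark the 6 vitellogenin genes, at 50% on both counts because each gene with a summit had at least 3, against 10.9% and 1.24% of all genes in the bin that holds them.

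The plot of gene length shows that both shares of all genes were higher in long genes, and that the vitellogenin genes lay above both curves at their own length. The peaks themselves were ordinary or weak by strength. Signal is the authors' deposited strength of a peak. No header or label names its scale, so values were compared within a list only. The median signal of the 11 peaks was 61.2, against 82.3 over the conservative list. The strongest, in vit-6, ranked 561 of 2010. Each peak was 336 bp wide, which was also the median width of the list. Their GC content had a median of 49.1% (range 43.5% to 56.8%), while the quartiles of all peaks were 35.4% and 44.6% with a median of 39.6%. The part of GC content or of coding location in the calls was not tested.

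**Figure D2:**
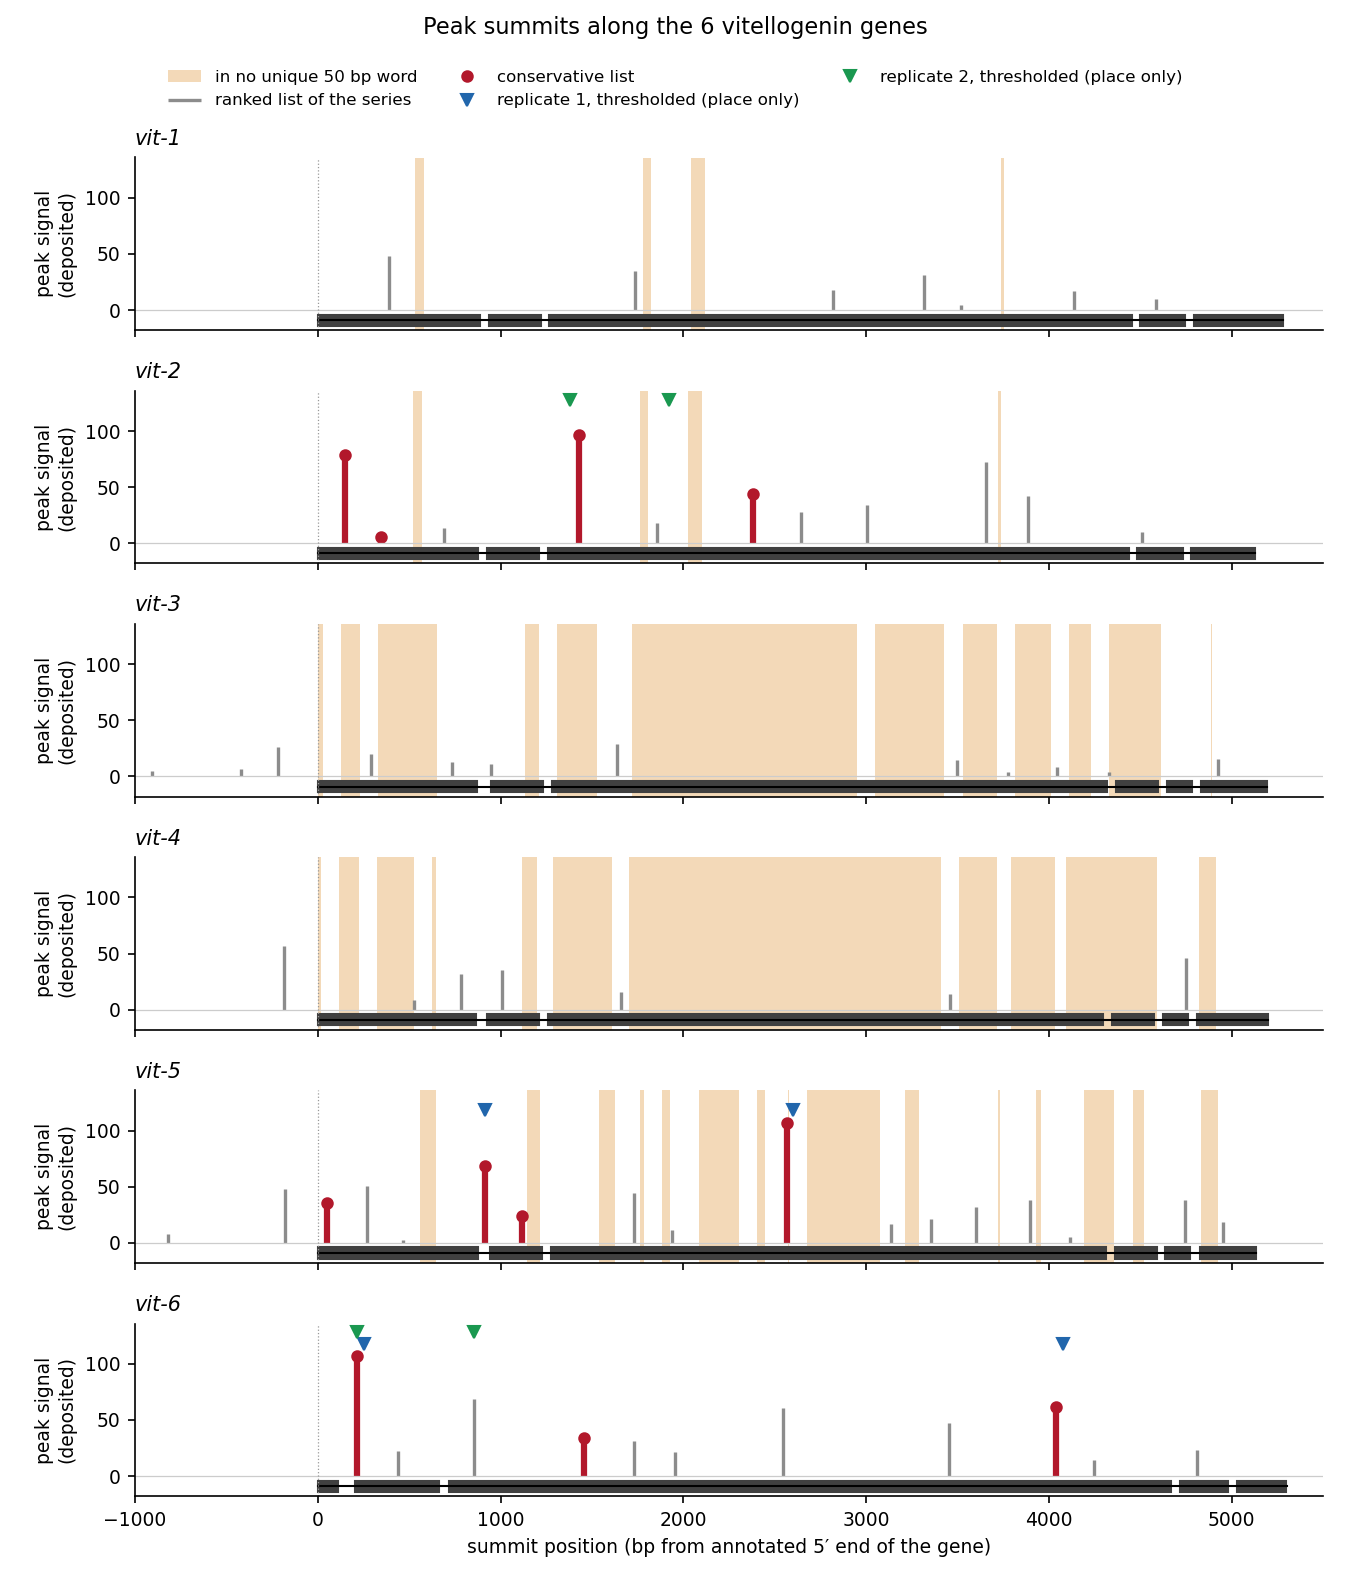
Peak signal as deposited (y axis) at each summit against its distance from the annotated 5′ end of the gene (x axis, bp), for the 6 genes, with exons as dark boxes. Red points are the 11 summits of the conservative list, grey lines the summits of the ranked list it was taken from, triangles (place only) the thresholded summits of replicate 1 (blue) and replicate 2 (green), and shaded bases lie in no 50 bp word found once in the genome; grey lines stand between the shaded runs of vit-3 and vit-4.

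vit-2 lies on chromosome X at 5101042 to 5106169 on the plus strand and encodes 1613 amino acids in 5 exons. Its strongest peak, with a signal of 96.9, had its summit 1430 bp from the 5′ end, in exon 3. A peak in exon 1, at 148 bp, had a signal of 79.0. Another, at 2384 bp, had 43.9. The remaining one, at 348 bp, had only 5.18, ranked 1996 of 2010 and overlapped the peak at 148 bp. The map of the genes shows these summits between 148 bp and 2384 bp of the 5128 bp of vit-2. Further along, it had ranked peaks below the threshold, the strongest with a signal of 72.6 at 3657 bp. Just beyond the 3′ end, a peak with a signal of 242 shared 14 bp with vit-2, and its summit lay in the neighbouring gene C42D8.9. That peak was not counted.

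vit-1, the closest relative of vit-2, had no peak in any thresholded list. It lies on chromosome X at 7727889 to 7733168, also on the plus strand. In the ranked list from which the conservative list was taken, vit-1 held 7 summits, the strongest at 388 bp with a signal of 48.1 and a score of 633. The score is the authors' scaled irreproducible discovery rate (IDR), a measure of how well a peak's rank repeats, where 830 or more corresponds to an IDR of at most 0.01 and every peak of the conservative list reached it. The coding sequences of vit-1 and vit-2 are 93.8% identical, and 87.2% and 86.9% of their 50 bp words occur once in the genome, so most of either gene can be told from the other. Around the vit-2 summits the copies differ by single bases, which is shown for 61 bases about the summits at 1430 bp and 148 bp, with the base of vit-1 in capitals where it differs.
vit-2 at chrX:5102442-5102502, plus strand: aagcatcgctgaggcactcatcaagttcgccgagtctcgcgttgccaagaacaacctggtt
vit-1 at chrX:7729305-7729365, plus strand: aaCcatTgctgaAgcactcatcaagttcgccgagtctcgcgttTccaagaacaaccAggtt
vit-2 at chrX:5101160-5101220, plus strand: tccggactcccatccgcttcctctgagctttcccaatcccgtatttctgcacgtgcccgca
vit-1 at chrX:7728018-7728078, plus strand: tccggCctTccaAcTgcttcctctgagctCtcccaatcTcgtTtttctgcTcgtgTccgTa
The copies share 56 of 61 bases in the first pair and 51 of 61 in the second. At the place in vit-1 that aligns with the vit-2 summit at 148 bp, the nearest ranked summit, the strongest of vit-1 at 388 bp, was 229 bp away. That same vit-1 summit was 29 bp from the place that aligns with the weak vit-2 summit at 348 bp. For the vit-2 summits at 1430 bp and 2384 bp the nearest ranked summits in vit-1 were 291 bp and 421 bp away.

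vit-5, vit-3 and vit-4 form the second group of near copies. vit-5 lies on the plus strand of chromosome X at 3403471 to 3408603 and encodes 1603 amino acids, as do the other two. Its strongest peak, with a signal of 106.7 at rank 564, had its summit 2565 bp from the 5′ end in exon 3. A peak with its summit in an intron, at 916 bp, had a signal of 68.8 and overlapped one at 1119 bp, in exon 2, with 24.2. The fourth summit, with 35.2, lay 52 bp from the 5′ end, and its peak extended into the promoter. Of the 3 genes, vit-5 was the one with summits in the conservative list.

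vit-3 (chromosome X, 3567355 to 3572549, minus strand) and vit-4 (3558769 to 3563965, minus strand) stand side by side. Each had summits in the ranked list, 12 in vit-3 and 7 in vit-4, and all missed the threshold. The strongest in vit-3 had a signal of 28.9 and a score of 124, at 1639 bp. The strongest in vit-4 had a signal of 57.1 but a score of 101, at −184 bp in the promoter, and another at 4750 bp had 46.4 with a score of 434. In the intergenic DNA beyond the 3′ end of vit-3, a conservative peak had a signal of 115.5 with its summit 5517 bp from the 5′ end of vit-3. A weak one with 4.95 reached 44 bp into the 3′ end of vit-3. Both had their summits outside the windows counted here.

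vit-6 is the only member outside chromosome X, on chromosome IV at 8261157 to 8266459, plus strand, and encodes 1650 amino acids. Its first summit, 215 bp from the 5′ end in exon 2, had the highest signal of the family, 106.9, at rank 561. A summit at 4037 bp, near the end of the long exon 3, had 61.2, and one at 1457 bp in the same exon had 33.9. The coding sequence of vit-6 is 50.8% to 51.6% identical to those of the other 5, and all of its 50 bp words are unique, so reads there belong to 1 gene. The 61 bases about its strongest and its last summit, which have no close copy elsewhere in the family, read as follows.
vit-6 at chrIV:8261342-8261402, plus strand: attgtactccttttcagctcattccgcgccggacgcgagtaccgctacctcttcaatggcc
vit-6 at chrIV:8265164-8265224, plus strand: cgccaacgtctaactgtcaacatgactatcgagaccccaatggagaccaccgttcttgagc
Beyond the 3′ end of vit-6, in the gene K07H8.8, stood an uncounted peak with a signal of 208. Uncounted conservative peaks also stood beyond the 3′ ends of vit-1, in set-12 with a signal of 83.3, and of vit-4, with 62.8. The share of all genes with a peak beyond the 3′ end was not measured.

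Among the 11 called peaks the lowest scores were 949, at the vit-6 summit at 1457 bp, and 982, at the vit-2 summit at 2384 bp. The threshold was 830. In the other ranked list of the series these peaks scored 219 and 63. Highest below the threshold were a vit-2 summit at 4510 bp, with a signal of 10.1 and a score of 745, and the vit-1 summit with 633. Scores of 614 (vit-2 at 3657 bp), 605 (vit-6 at 3452 bp), 600 (vit-2 at 3885 bp) and 575 (vit-5 at 4744 bp) stood close to that of vit-1. At a score of at least 540, which corresponds to an IDR of 0.05, vit-1 joined vit-2, vit-5 and vit-6. The share was 13.4% of all genes and 17.5% of those of 5000 to 5500 bp. With no limit on the score all 6 genes had summits, 65 in all, as did 82.9% of protein-coding genes, so this list says little about the family. vit-1 reached 540 in this ranked list only. Its summit at 388 bp scored 512 in the other ranked list of the series. In the single libraries its highest scores were 331 (replicate 1) and 159 (replicate 2). Some signals below the threshold were above those of called peaks, such as 68.6 at 855 bp and 60.7 at 2547 bp in vit-6, whose scores were 347 and 86.

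The other thresholded list of the series, with 1458 peaks, gave the same 3 genes, with 3 summits in vit-2, 2 in vit-5 and 4 in vit-6. In it 5.37% of protein-coding genes had a summit. Of the 11 peaks, 7 (63.6%) were in it unchanged, close to the 62.9% of all conservative peaks. It lacked the vit-2 summit at 2384 bp, the vit-5 pair at 916 bp and 1119 bp and the vit-6 summit at 1457 bp, and it added weak summits in vit-6 at 437 bp, with 22.6, and at 4247 bp, with 14.4. Both lists come from the same libraries and are not independent.

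The single libraries gave fewer sites, and different ones. In the thresholded list of replicate 1, vit-5 and vit-6 had 2 summits each, where 3.68% of protein-coding genes had one. Replicate 2 had 2 summits each in vit-2 and vit-6, where the share of all genes was 3.65%. vit-6 was thus the single member called in both libraries, vit-5 was called in replicate 1 and vit-2 in replicate 2. Site by site, 1 of the 11 conservative peaks, the vit-6 peak at 215 bp, overlapped a thresholded peak in both libraries (9.09%), against 543 of 2010 (27%) in the whole list. A further 5 overlapped one in 1 library and 5 in neither.

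In the ranked lists of the single libraries, at which 65.7% (replicate 1) and 66.0% (replicate 2) of protein-coding genes had a summit, all 6 genes held summits and 10 of the 11 sites had an overlapping peak in both. The share of all conservative peaks with such overlap was not measured. Overlap is also a loose criterion: at the vit-2 site at 2384 bp the nearest overlapping peak of replicate 2 had its summit 253 bp away. At the vit-6 site at 215 bp the signals were 61.0 in replicate 1 and 44.3 in replicate 2. At the vit-5 site at 2565 bp they were 53.4 and 49.4. At the vit-2 site at 1430 bp they were 39.2 and 58.5. Each of these 6 signals stood at a percentile of at least 96.2 in its own ranked list. The site at 916 bp in vit-5 had 54.3 in replicate 1 and 34.5 in replicate 2, and the one at 4037 bp in vit-6 had 55.3 and 29.6. The vit-6 site at 1457 bp had 33.3 in replicate 2 and no overlapping ranked peak in replicate 1.

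**Figure D3:**
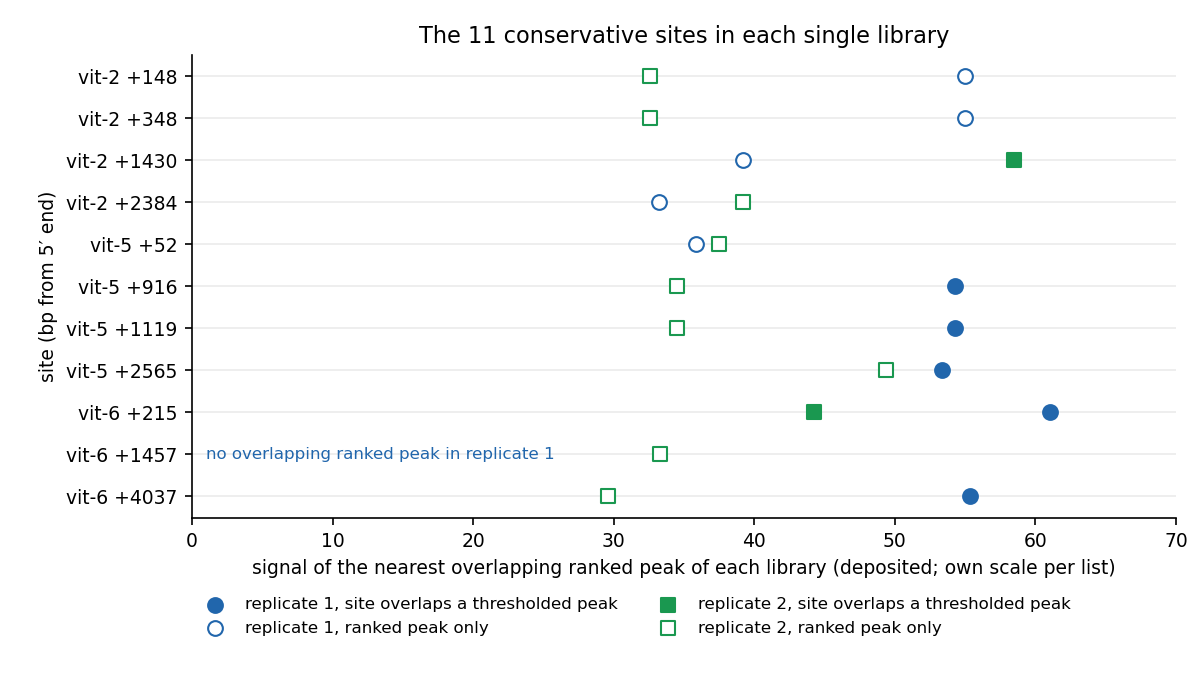
Deposited signal (x axis, own scale in each list) of the nearest overlapping ranked peak in replicate 1 (circles) and replicate 2 (squares) at each of the 11 conservative sites (y axis, by gene and bp from the 5′ end). Filled symbols mark sites that overlap a thresholded peak of that library; the vit-6 site at +215 alone is filled in both, and the pairs at vit-2 +148 and +348 and at vit-5 +916 and +1119 show the same library peaks.

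The plot of the sites by library also shows how many separate places there were. The vit-2 summits at 148 bp and 348 bp share the same peak in each library, as do the vit-5 summits at 916 bp and 1119 bp. Merging overlapping peaks left 9 places, 3 in each gene. The fourth vit-5 summit, at 52 bp, rested on library peaks whose summits were 180 bp and 199 bp away, so its place is loose. Overlap with another peak was seen for 4 of the 11 (36.4%) and for 281 of the 2010.

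The copies share so much sequence that reads cannot always be given to 1 gene. Coding sequences of vit-3 and vit-4 are 99% identical, and those of vit-5 are 97.7% and 97.8% identical to them. Only 25.9% of the 50 bp words of vit-3 and 21.4% of those of vit-4 occur once in the genome, against 50.9% in vit-5. The longest identical stretch between vit-3 and vit-4 is 1326 bp. Upstream of the genes, at least 98.9% of the words are unique in every member, so peaks in the promoters can be placed. No header or label gives the read length or says how reads with several places were treated.

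**Figure D4:**
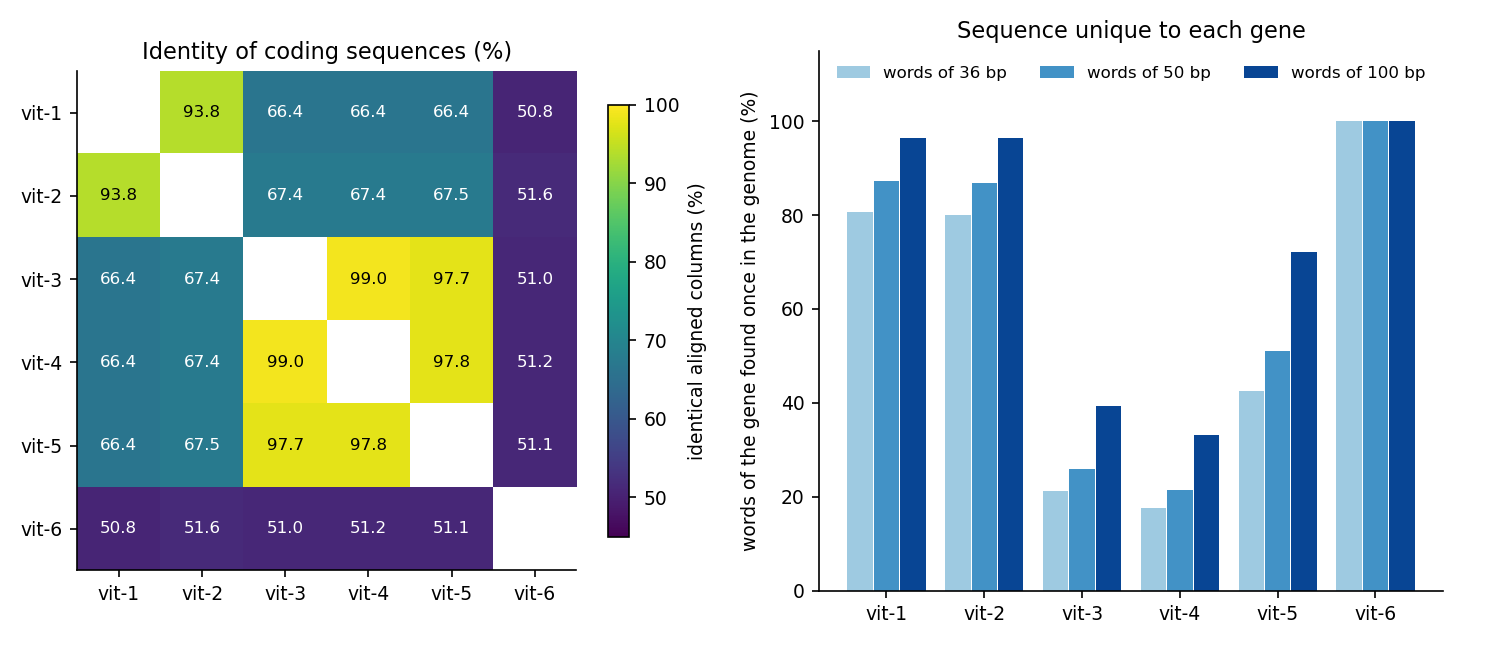
Left, percentage of identical aligned columns between coding sequences of each pair of genes (axes, genes; color scale, %). Right, percentage of words (y axis) of 36, 50 or 100 bp (bars) that occur once in the genome, for each gene (x axis); vit-3 and vit-4 are lowest at every word length, with 25.9% and 21.4% at 50 bp, and vit-6 is at 100%.

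The plot of sequence sharing divides the family into vit-1 with vit-2, vit-3 with vit-4 and vit-5, and vit-6 alone. The strongest vit-5 summit falls in sequence that all of the second group share. Around it, 61 of 61 bases are the same in vit-3 and vit-4, while vit-2 has 32 of 61, as the lines below show, with capitals where vit-2 differs from vit-5.
vit-5 at chrX:3406006-3406066, plus strand: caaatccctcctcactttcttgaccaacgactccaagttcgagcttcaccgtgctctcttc
vit-3 at chrX:3569950-3570010, minus strand: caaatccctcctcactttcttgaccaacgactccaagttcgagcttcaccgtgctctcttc
vit-4 at chrX:3561386-3561446, minus strand: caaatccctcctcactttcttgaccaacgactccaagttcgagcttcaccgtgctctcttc
vit-2 at chrX:5103558-5103618, plus strand: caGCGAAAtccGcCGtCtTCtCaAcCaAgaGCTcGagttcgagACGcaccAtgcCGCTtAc
Of the 336 bp of that vit-5 peak, 44.6% of the 50 bp words are unique. At the same place in vit-3 and vit-4 there was no ranked peak: the nearest ranked summits were 929 bp and 892 bp away. Whether fragments from vit-3 or vit-4 are missing there or cannot be placed was not tested. Of the other called vit-5 peaks, the one at 1119 bp has 47.4% unique words, and those at 52 bp and 916 bp have 89.2% and 88.5%. For the peaks of vit-2 and vit-6, 97.6% to 100% of the words are unique.

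Ranked summits in the near copies kept to the sequence that can be told apart. In vit-3, vit-4 and vit-5 together, 8078 bp lie in no unique 50 bp word and 7447 bp lie in one. The ranked list had 30 summits in the bodies of the 3 genes, 4.03 per kilobase of the sequence in unique words, and 0 of them in the other 8078 bp. The ranked list behind the other thresholded list had 21 and 0. The replicate lists had 13 and 1 for replicate 1, and 14 and 2 for replicate 2. vit-3 holds a run of 1228 bp without a unique word that starts 1722 bp from its 5′ end, and vit-4 one of 1707 bp from 1702 bp. Neighbouring ranked summits stood on either side of each run, at 1639 bp and 3498 bp in vit-3 and at 1657 bp and 3460 bp in vit-4. In all 4 ranked lists, no summit fell inside either run. Whether ZFP-3 was present there cannot be told from these lists. In vit-1, which also had no called peak, 3.50% of the gene lies in no unique word.

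The promoters of the 6 genes hold known elements but no summit of a called peak. The vit-5 peak with its summit at 52 bp began 116 bp upstream of the 5′ end, and the vit-2 peak with its summit at 148 bp began 20 bp upstream. VPE1 (TGTCAAT), found here on either strand within 250 bp upstream, was in 6 of 6 promoters and in 4.81% of 19973 promoters of the same length. The part of the vit-5 peak in the promoter covers both VPE1 matches of that gene and not its VPE2 match. VPE2 (CTGATAA) was in 5 of 6, all but vit-3, and in 7.2% of all. The GATA core TGATAA, which VPE2 contains, was in 6 of 6 and in 26.8% of all. The 3 motifs were taken because they are known from vitellogenin promoters. Their presence there was given beforehand and is not a finding of these data. In the ranked list behind the conservative one, peaks stood over the promoters of 3 members, a count from which nothing is read. The share of all promoters with such a peak was not measured. vit-5 had one at −182 bp with a signal of 47.9 and a score of 493, vit-4 the one at −184 bp described above, and vit-3 one at −218 bp with 25.95 and a score of 134. In vit-5 the libraries had 21.2 (replicate 1, −155 bp) and 37.5 (replicate 2, −147 bp). In vit-4 they had 32.7 at −186 bp and 12.2 at −379 bp, and in vit-3 replicate 1 had 16.5 at −252 bp and replicate 2 none. Replicate 1 alone also had 1 ranked summit upstream of vit-1 and 1 upstream of vit-2. The promoters of these 3 genes are shown, 5′ to 3′ up to the base before the annotated start, with matches to any of the 3 motifs on either strand in capitals.
vit-3 at chrX:3572550-3572799, minus strand: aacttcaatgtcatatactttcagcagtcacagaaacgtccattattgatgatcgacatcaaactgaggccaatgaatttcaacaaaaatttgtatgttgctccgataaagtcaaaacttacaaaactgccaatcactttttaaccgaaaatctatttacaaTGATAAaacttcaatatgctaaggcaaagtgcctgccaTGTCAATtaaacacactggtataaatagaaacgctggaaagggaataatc
vit-4 at chrX:3563966-3564215, minus strand: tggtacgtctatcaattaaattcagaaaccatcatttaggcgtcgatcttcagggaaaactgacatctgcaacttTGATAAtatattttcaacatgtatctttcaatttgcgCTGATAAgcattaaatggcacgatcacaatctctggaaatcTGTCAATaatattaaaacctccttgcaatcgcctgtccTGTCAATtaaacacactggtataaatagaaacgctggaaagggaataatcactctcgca
vit-5 at chrX:3403221-3403470, plus strand: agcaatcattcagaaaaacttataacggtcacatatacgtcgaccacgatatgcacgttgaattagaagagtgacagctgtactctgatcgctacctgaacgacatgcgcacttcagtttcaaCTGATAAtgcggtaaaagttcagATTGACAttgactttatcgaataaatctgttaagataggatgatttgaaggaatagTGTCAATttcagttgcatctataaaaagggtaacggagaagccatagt
vit-3 and vit-4 share a stretch of 50 identical bases that starts at −50 bp in vit-3 and −59 bp in vit-4 and opens with a VPE1 match. It ends where the compared promoter of vit-3 ends, and the first 28 bp of vit-3 also lie in no unique 50 bp word, so the shared sequence may be longer. Among the other pairs of promoters the longest identical stretch was 11 bp, so the copies that are nearly the same in coding sequence differ in their promoters beyond that stretch. A match describes letters and is not a measured site of any factor.

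A sequence found earlier around many ZFP-3 peaks of these data, AGACGCAG, was absent within 50 bp of the 11 vitellogenin summits on both strands, while 4.63% of all conservative peaks had it. Its shorter form AGACGC was near 1 summit, the weak vit-2 one at 348 bp, against 9.25% of all peaks. ACGCAG was near 1 summit, the strongest of vit-5, against 9.30%. No difference is read from counts this small.

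Other genes of yolk production were read from lists by role. Of 14 protein-coding regulators, 3 had a summit in the conservative list: pqm-1, which encodes a zinc finger factor of the intestine, with a signal of 98.9, daf-16, the FOXO factor of insulin signalling, with 63.6, and lin-29, a zinc finger factor of the larval-to-adult switch, with 62.99. The GATA factor gene elt-2 had none. Of 11 genes of assembly and uptake, 2 had summits, the strongest of each upstream. rab-7, a GTPase of late endosomes, had 2, the stronger with a signal of 126. rab-11.1, a GTPase of recycling, had 1, with 92.3. The yolk receptor gene rme-2 and dsc-4, whose product loads lipid onto vitellogenin, had none.

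Genes of lipid supply had summits in 7 of 15. The highest was fat-6, a fatty acid desaturase gene, with 3 summits and a signal of 141, followed by fat-3 (76.2), sbp-1, the SREBP gene (73.6), and fat-4 (71.8). The other 3 lists give genes picked beforehand as long or as abundantly transcribed in a tissue, and no RNA level was measured here. They had summits in 4 of 15 for the intestine, led by cpr-1 (77.1), in 1 of 14 for muscle, act-4 (59.7), and in 1 of 10 for extracellular matrix, bli-1 (143). None of these 3 lists had a gene with 3 or more summits. Only 0.381% of protein-coding genes had that many, so lists this short cannot show a difference from the vitellogenin genes. All of these counts are set against the 7.30% of protein-coding genes given above, and no list was tested. That share is not matched for length. Median lengths of the lists ran from 1347 bp (intestine) to 7216 bp (regulators). The share was 4.85% for genes longer than 1000 bp and up to 2000 bp. It was 12.5% for those longer than 5500 bp and up to 7500 bp. The counts were lower in the single libraries for lipid supply, with 1 gene in replicate 1 and 1 in replicate 2, and for the intestine, also with 1 in each. The other thresholded list had 3 genes of lipid supply and 3 of the intestine. The regulators had 2 in replicate 1 and 3 in replicate 2, and assembly and uptake 2 and 1. Muscle had 1 in replicate 1 and 0 in replicate 2, and extracellular matrix 1 in each. The shares of all protein-coding genes in these lists were 3.68% (replicate 1), 3.65% (replicate 2) and 5.37% (other thresholded list). zfp-3 itself had 1 summit in the conservative list, with a signal of 105. It had 2 in the other thresholded list, 2 in the thresholded list of replicate 1 and 0 in that of replicate 2.

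Read depth is unknown from these lists, so no counting interval is given, and the spread between the 2 libraries is the one measure of error. The sites rest on 1 tagged strain at 1 age, before most yolk is made, and the level of vitellogenin RNA in these animals was not measured.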

How the data were processed

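ChIP-seq of tagged ZFP-3 was measured in 2 biological replicates of whole L4 larvae. The authors deposited peak lists on ce11, 4 for the series and 1 thresholded and 1 ranked list for each library, and no header or label names the aligner or the peak caller. Per the file headers and notes, the series lists were made from both libraries. The signal of a peak is the authors' deposited strength, and the score is the authors' deposited scaled IDR. Each list was read separately, and 16 columns of the ranked series lists that carry values of their inputs without naming samples were not used. Summits are column 2 plus column 10, given from 1. Genes come from Ensembl release 115, sequence from the RefSeq FASTA of WBcel235. Words of 50 bp were counted over both strands of the whole genome; identities come from pairwise MAFFT 7.526 alignments. Tables were made with pandas 2.3.3 and numpy 2.4.6 in Python 3.11.15, and the counting was tested on simulated data. Members and lists were chosen with earlier results of these data known, so no test was made. Named genes are the 6 members, up to 4 genes of each list by highest signal, zfp-3 and neighbours of vitellogenin peaks; rme-2, dsc-4, elt-2 and the genes with 3 or more coding summits were added after values were seen. Alternatives changed the list, window, score limit, overlap and word length.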

Additional observations from a re-analysis of the deposited data

How the results depend on the processing

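The 3 genes with summits, vit-2, vit-5 and vit-6, were the same in the other thresholded list (9 summits), with windows of 500 bp or 2000 bp or the gene body alone (11 summits each), and among peaks above the median signal (3 summits, 1 in each gene). From 1000 bp upstream to 200 bp downstream of the 5′ end, 2 summits remained, in vit-2 and vit-5. Counting any overlap by 1 bp added vit-3 (4 genes, 13 peaks). A score of at least 540 in the ranked list behind the conservative one added vit-1 (4 genes, 18 summits). The whole of that ranked list gave 6 genes and 65 summits. Leaving out a replicate meant reading the thresholded list of the other library alone, without calling peaks again. It left 4 summits in either case: without replicate 1 in vit-2 and vit-6, without replicate 2 in vit-5 and vit-6. These lists are shorter, with 933 peaks (replicate 2) and 931 (replicate 1), and 3.65% and 3.68% of protein-coding genes had a summit in them. Sites found in both libraries numbered 1 with overlap or with summits within 100 bp, and 10 by overlap with peaks of the ranked lists. Over the vitellogenin peaks, unique words made up 87.9% at 50 bp, 82.5% at 36 bp and 96.9% at 100 bp. Identity of vit-3 and vit-4 was 99% in coding sequence, 97.7% with introns and 47.7% over 1000 bp upstream. Merging overlapping peaks (9 places) and varying the word length for ranked summits in sequence without a unique word (4 at 36 bp, 0 at 50 bp and 100 bp) were added after seeing the data. No paired analysis was possible because there is 1 group and no test. Depth is unknown.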
